A study of Homo sapiens with 6 samples.

Results

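Aldehyde dehydrogenases (ALDHs) were examined by RNA sequencing in a chemoresistant and a parental human bladder carcinoma cell line. The family was defined by name as ALDH1A1, ALDH1A2, ALDH1A3, ALDH1B1, ALDH2, ALDH3A1, ALDH3A2, ALDH3B1, ALDH7A1 and ALDH18A1, and a gene was taken where the deposited table held a row with its symbol. Of these 10 genes, 7 had a row among the 18936 genes of the table, and 6 passed the filter on low counts that left 15120 genes for testing. ALDH2 had a row and was removed by the filter. ALDH1A2, ALDH1A3 and ALDH3A1 had no row in the table and are not analysed here.

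The resistant line, UC3DDP, was obtained by cycles of drug exposure at rising doses followed by outgrowth of the survivors, and it was compared with its parental line UC3, each represented by 3 libraries. UC3-R is the study's name for this subline. The study's text says that gemcitabine, a nucleoside analogue, and cisplatin, a platinum compound that crosslinks DNA, were used for its selection. The labels give no drug beyond the letters DDP in the sample titles, which they do not explain. No time, dose or genotype is given in the labels for either line, a single resistant population was sequenced, and separate cultures are not stated, so that the p-values describe the spread among these libraries and that spread may be technical. The labels conflict in places, because the series title names the line T24, the extraction text names retinas and the processing notes name the mouse build mm9, whereas the sample titles name UC3 and UC3DDP and the gene identifiers are human.

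ALDHs oxidise aldehydes to carboxylic acids with NAD or NADP as cofactor, and so clear reactive aldehydes that arise from lipids, amino acids, ethanol and drugs. The ALDH1A enzymes convert retinal to retinoic acid, the ligand of nuclear receptors that steer differentiation, and ALDH activity is widely used to mark stem-like and drug-tolerant cells in carcinomas. Other members have separate duties in mitochondria, the endoplasmic reticulum and the cytosol, among them the breakdown of fatty aldehydes and lysine and the synthesis of proline.

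Total counts per library ranged from 16757610 to 17254683 in UC3DDP and from 19467228 to 20803970 in UC3. Expression of genes with high GC content relative to those with low GC content, taken as the difference between the 20% of genes with the highest and the 20% with the lowest GC content in log2 expression relative to the UC3 mean, was 1.69 to 2.36 in UC3DDP libraries and -0.02 to 0.02 in UC3 libraries, with the highest value in UC3DDP replicate 1. Fitted fold changes of the genes named are therefore also given after an offset for GC content and length, and low counts as ratios or bounds without it, and the part of this trend in the results below was otherwise not tested. Of the urothelial markers, 11 of 15 were in the table, with a summed level of 350 to 444 CPM (counts scaled to a common library size) in UC3DDP and 223 to 232 CPM in UC3, mostly from keratin genes. The uroplakin genes UPK2 and UPK1A averaged under 1 CPM in both lines, and CDH1 averaged 3.14 CPM in UC3DDP and had 0 counts in UC3. All 7 of 7 fibroblast markers were listed, with a summed level of 16.2 to 29.7 CPM in UC3DDP and 5.86 to 6.44 CPM in UC3. The 4 of 5 endothelial markers listed summed to 2.31 to 8.07 CPM in UC3DDP and 0.103 to 0.496 CPM in UC3, where KDR was at 0. Of the leukocyte markers 1 of 6 was listed, at 0.474 CPM or less in every library, and of the retina markers 1 of 7, at 0.639 CPM or less. The part of these marker differences in the ALDH results was not tested.

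The bases upstream of 3 members are shown as examples, which leave out the members with higher levels in UC3DDP. ALDH1A1 fell, and ALDH7A1 was at nearly the same level in both lines. ALDH1B1, an ALDH1 relative, was not called and had a larger difference with the offset. Each sequence is the 250 bases before the RefSeq transcript start on GRCh38.p14, on the strand of the gene, and capitals mark the motifs found. The window of ALDH1A1 is chr9:72953054-72953303 on the minus strand, that of ALDH1B1 is chr9:38392452-38392701 on the plus strand, and that of ALDH7A1 is chr5:126595220-126595469 on the minus strand.
ALDH1A1: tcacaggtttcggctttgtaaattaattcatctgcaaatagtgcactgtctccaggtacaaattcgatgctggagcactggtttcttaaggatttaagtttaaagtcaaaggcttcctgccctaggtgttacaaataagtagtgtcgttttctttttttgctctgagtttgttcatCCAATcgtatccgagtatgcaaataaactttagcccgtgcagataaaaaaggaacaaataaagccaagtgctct
ALDH1B1: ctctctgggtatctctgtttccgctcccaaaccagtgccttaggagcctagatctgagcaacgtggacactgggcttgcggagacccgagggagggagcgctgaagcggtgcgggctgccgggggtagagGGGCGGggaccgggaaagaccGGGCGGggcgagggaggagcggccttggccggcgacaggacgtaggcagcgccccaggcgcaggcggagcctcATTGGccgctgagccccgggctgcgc
ALDH7A1: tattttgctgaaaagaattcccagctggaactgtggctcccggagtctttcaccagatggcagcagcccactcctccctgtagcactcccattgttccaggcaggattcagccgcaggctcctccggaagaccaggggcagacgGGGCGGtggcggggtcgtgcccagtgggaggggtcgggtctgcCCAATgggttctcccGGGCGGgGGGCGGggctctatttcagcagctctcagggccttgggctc

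RefSeq promoters were matched for 6 of the 7 members with a row. Motifs were searched on both strands. The TATA box TATAAA occurred in 10.7% of 35116 promoter windows of the same length, the box CCAAT in 32.0%, the GC box GGGCGG in 42.6% and the antioxidant response element core TGACNNNGC in 10.9%. The ALDH1A1 window held 1 CCAAT starting 74 bases before the start (position -74) and no GGGCGG. The ALDH1B1 window held 1 CCAAT on the opposite strand, printed as its reverse complement, and 2 GGGCGG. The ALDH7A1 window held 1 CCAAT and 3 GGGCGG. No motif searched was found in the windows of ALDH3A2, ALDH3B1 and ALDH18A1, which says only that these letters are not there. The ALDH1A1 window was also the poorest in G and C, with 38.4% GC and 6 CpG dinucleotides, against 70.4% and 23 in ALDH1B1 and 64.0% and 11 in ALDH7A1, and 10.1% of all promoters had a lower GC content. Its CpG count was not the lowest, since the ALDH3B1 window held 3, and 38.1% of all promoters had fewer CpG than ALDH1A1. The median promoter had 58.0% GC and 11 CpG. The start used for ALDH1A1 lies inside the longer gene span of the table (chr9:72900671-73080442), so that transcripts from other starts were counted in the same row. The ALDH7A1 window also lies partly inside the gene span of the table (chr5:126531200-126595362), including its marked motifs.

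ALDH1A1 was the only tested member called lower in UC3DDP, and none was called higher. A gene was called where its log2 fold change exceeded 1 in size and its adjusted p in the quasi-likelihood test of edgeR (Benjamini-Hochberg) was under 0.05. By this rule 0 of 6 tested members were called higher and 1 was called lower. Over all tested genes 17.6% were called higher and 23.1% lower, so 1 call among 6 members, against a background of 40.7% in either direction, is no more than the share of all genes. DESeq2 and limma voom gave the same counts, and at an unadjusted p under 0.05 edgeR had 2 members higher and 3 lower. Without the fold limit, 2 members were higher and 2 lower at the adjusted p threshold, against 40.6% of all genes higher, 39.9% lower and 80.5% in either direction. With the offset 0 members were called higher and 1 lower, against 27.8% of all genes called, and 1 was higher and 2 lower without the fold limit, against 76.5% of all genes in either direction. The libraries of the lines did not overlap for 5 of the 6 members, against 83.7% of all tested genes. The median log2 fold change of the 6 was -0.10, and that of all tested genes was 0.02. The median absolute log2 fold change was 0.44 over the members and 0.82 over all genes. Here, as for every bulk value below, less RNA per cell and fewer cells of a kind cannot be told apart.

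**Figure D1:**
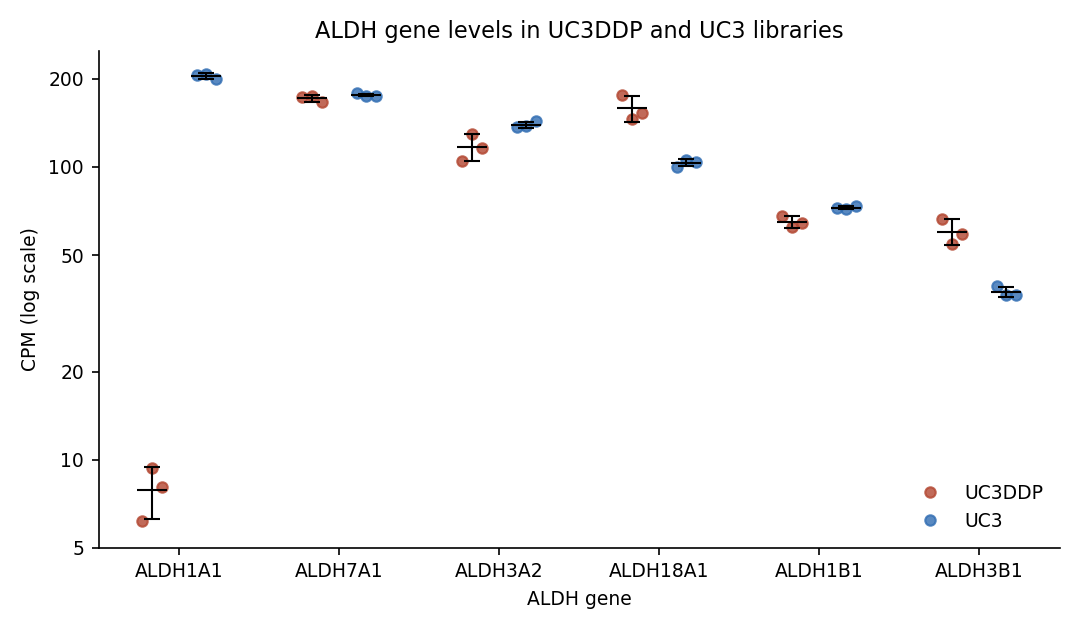
Expression of the 6 tested ALDH members in CPM (log axis), with UC3DDP libraries in red and UC3 libraries in blue. Points are libraries and black bars the mean and SD of 3. ALDH1A1 averaged 7.86 CPM in UC3DDP and 205 CPM in UC3, and the ranges of ALDH7A1 overlapped.

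ALDH1A1 (ENSG00000165092, minus strand of chromosome 9) encodes a cytosolic enzyme that makes retinoic acid from retinal and is an isoform often tied to ALDH-high cancer cells. It had 104, 161 and 136 counts in UC3DDP replicates 1 to 3, against 4150, 4037 and 4164 counts in UC3 replicates 1 to 3. In CPM this was 6.17, 9.36 and 8.05 in UC3DDP and 206, 209 and 200 in UC3. Every UC3DDP library was far below every UC3 library, and the highest UC3DDP value was in the replicate with the smallest GC trend, whose part in this value was not tested. The mean was 7.86 ± 1.60 CPM in UC3DDP and 205 ± 4.42 CPM in UC3 (SD, n = 3 each), and the fitted level was 26.0-fold lower in UC3DDP. This gave a log2 fold change of -4.70 (SE 0.13, adjusted p = 2.5e-08, edgeR), and its size exceeded that of 98.3% of all tested genes. With the GC and length offset it was -4.17 (adjusted p = 1.6e-10, edgeR). Its transcript has 42.0% GC, a value above that of 27.2% of tested genes.

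ALDH1B1 (ENSG00000137124, chr9:38392702-38398661), a mitochondrial relative of the ALDH1A enzymes that oxidises acetaldehyde and retinal, was not called. Its level was 68.1, 62.4 and 64.2 CPM in UC3DDP replicates 1 to 3, against 72.5, 71.8 and 73.5 CPM in UC3 replicates 1 to 3. The UC3DDP libraries all lay slightly under the UC3 libraries. In log2 terms the difference was -0.16 (SE 0.07, adjusted p = 0.056, edgeR), and with the offset it was -0.65 (adjusted p = 4.1e-07), still short of the fold limit. Leaving out UC3DDP replicate 1 without the offset gave -0.20 (adjusted p = 8.5e-04). Its adjusted p was also under 0.05 with DESeq2 (0.019), DESeq2 size factors (0.028), library totals alone (0.037) and limma voom (0.048), and ranged up to 0.169 in the other fits without the offset.

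ALDH2 (ENSG00000111275, chr12:111766887-111817532), the mitochondrial enzyme that clears the acetaldehyde formed from ethanol, was close to undetected in both lines. It had 12, 1 and 0 counts in UC3DDP replicates 1 to 3, and 0 counts in each UC3 library. The 13 counts in UC3DDP were at least 5.13-fold higher than a floor of 3 counts over the UC3 group, and a count of 0 allows up to 0.0497 CPM there. Almost all of them came from UC3DDP replicate 1, and 1 count was left without it, for which no fold is given. Without the filter the adjusted p of edgeR was 0.0613. A readthrough gene shares 680 bases, 6.99% of the exon bases of ALDH2, and its reads cannot be told apart from those of ALDH2. These bounds cover counting error only.

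ALDH3A2 (ENSG00000072210, chr17:19648136-19685760), the fatty aldehyde dehydrogenase of the endoplasmic reticulum that also handles hexadecenal from sphingosine 1-phosphate and is mutated in Sjögren-Larsson syndrome, had 105, 130 and 116 CPM in UC3DDP replicates 1 to 3. The UC3 replicates 1 to 3 had 137, 138 and 143 CPM. The lines did not overlap, with UC3DDP replicate 2 nearest to UC3. This was a log2 fold change of -0.25 (SE 0.09, adjusted p = 0.024, edgeR). With the offset it was -0.10 (adjusted p = 0.084), and without UC3DDP replicate 3, UC3 replicate 2 or UC3 replicate 3 the adjusted p was 0.082, 0.053 or 0.074.

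ALDH3B1 (ENSG00000006534, chr11:68008578-68029282), a membrane-attached enzyme that oxidises medium and long chain aldehydes, had 66.7, 54.7 and 59.1 CPM in UC3DDP replicates 1 to 3 and 39.2, 36.4 and 36.6 CPM in UC3 replicates 1 to 3. All UC3DDP libraries were above all UC3 libraries. The fold change on the log2 scale was 0.69 (SE 0.09, adjusted p = 8.0e-05, edgeR), which is the highest of the 6 members and short of the fold limit. With the offset it was 0.00 (adjusted p = 0.975). Its transcript has 59.5% GC, above that of 86.4% of tested genes, the highest among the members.

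The enzymes of amino acid metabolism among the members, ALDH7A1 and ALDH18A1, differed in fold change without the offset, a contrast that was not tested. ALDH7A1 (ENSG00000164904, chr5:126531200-126595362), or antiquitin, oxidises α-aminoadipic semialdehyde in lysine breakdown and also betaine aldehyde in choline breakdown. It had 173, 175 and 167 CPM in UC3DDP replicates 1 to 3, against 178, 175 and 175 CPM in UC3 replicates 1 to 3. It was the only tested member whose libraries overlapped between the lines. The difference on the log2 scale was -0.04 (SE 0.06, adjusted p = 0.605, edgeR), and 0.08 with the offset (adjusted p = 0.240), so its sign differed between the fits.

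ALDH18A1 (ENSG00000059573, chr10:95605941-95656711), or P5C synthase, catalyses the first steps of proline and ornithine synthesis from glutamate and is a reductase and kinase rather than an aldehyde oxidase. It had 176, 146 and 153 CPM in UC3DDP replicates 1 to 3, against 100, 105 and 104 CPM in UC3 replicates 1 to 3. Every UC3DDP library was above every UC3 library. The log2 difference was 0.62 (SE 0.09, adjusted p = 1.2e-04, edgeR) and 0.29 with the offset (adjusted p = 0.0013), both short of the fold limit.

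**Figure D2:**
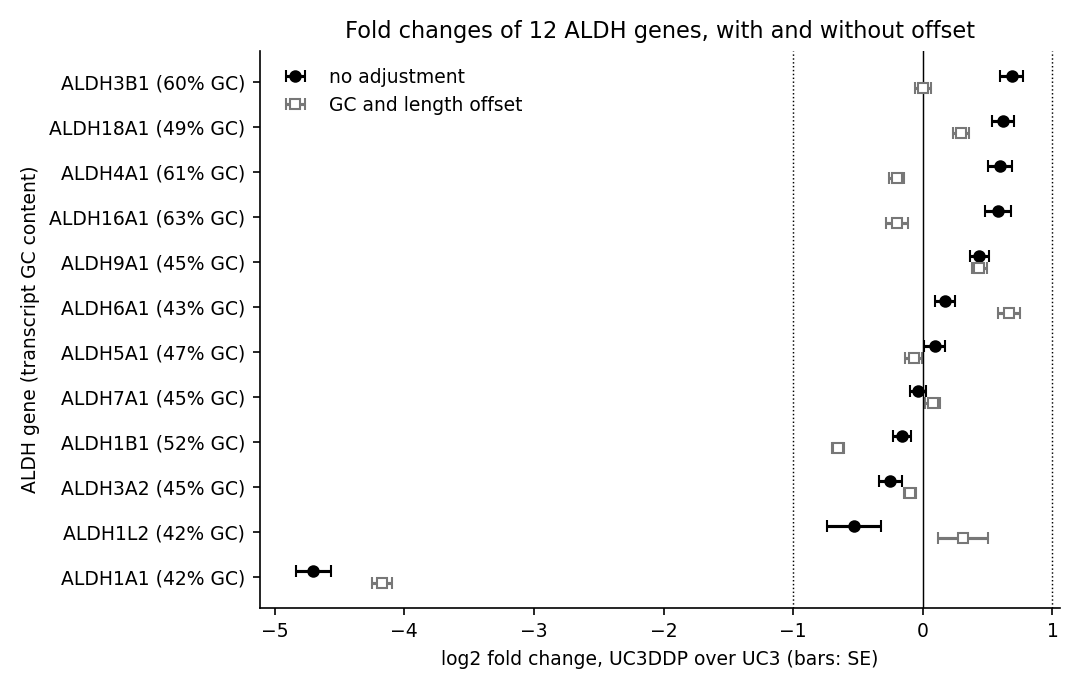
Log2 fold change of UC3DDP over UC3 with its SE for the 12 tested ALDH genes, without adjustment (black circles) and with the GC and length offset (open squares), ordered by the unadjusted value. Dotted lines mark the fold limit of 1. ALDH1A1 lies at -4.70 and -4.17, and every other gene lies within the limit in both fits.

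Of 9 further genes of the ALDH superfamily, 7 had a row and 6 were tested. None of the 6 was called by edgeR, DESeq2 or limma voom, nor with the offset, against 40.7% of all genes, and 27.8% with the offset. Their median log2 fold change was 0.30, or 0.12 with the offset, against 0.02 and -0.04 over all tested genes. At an unadjusted p under 0.05, edgeR had 4 higher and 1 lower. ALDH9A1, which oxidises γ-aminobutyraldehyde and the trimethylated precursor of carnitine, averaged 101 ± 5.46 CPM in UC3DDP and 74.6 ± 1.97 CPM in UC3 (SD, n = 3 each). Its fold change on the log2 scale was 0.43 (adjusted p = 4.2e-04, edgeR) and 0.44 with the offset, the only one of the 6 with nearly the same value in both fits.

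ALDH4A1, which completes proline breakdown in mitochondria, averaged 32.2 ± 3.26 CPM in UC3DDP and 21.3 ± 0.958 CPM in UC3, a log2 fold change of 0.60 that became -0.20 with the offset. ALDH16A1, a noncanonical member, averaged 11.1 ± 0.642 CPM in UC3DDP and 7.43 ± 0.351 CPM in UC3, with 0.58 and -0.20. Both directions flipped with the offset, and both transcripts are rich in GC, at 60.7% and 62.6%.

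ALDH6A1, the methylmalonate semialdehyde dehydrogenase of valine breakdown, averaged 24.2 ± 0.223 CPM in UC3DDP and 21.5 ± 1.17 CPM in UC3, with 0.17 (adjusted p = 0.058, edgeR) and 0.66 with the offset. ALDH5A1, the succinic semialdehyde dehydrogenase of GABA breakdown, averaged 22.5 ± 1.09 CPM in UC3DDP and 21.1 ± 1.29 CPM in UC3, with 0.09 (adjusted p = 0.310, edgeR) and -0.07. ALDH1L2, the mitochondrial formyltetrahydrofolate dehydrogenase, had 16, 25 and 18 counts in UC3DDP libraries and 35, 34 and 32 counts in UC3 libraries, with -0.53 (adjusted p = 0.041, edgeR) and 0.31 with the offset. Its adjusted p was 0.111 with DESeq2 and 0.058 with the replicate block, and 0.014 to 0.135 when each library was left out, under 0.05 only without UC3DDP replicate 2. The sign of ALDH5A1 and ALDH1L2 thus depended on the offset. Opposite-strand genes share exon bases with ALDH6A1 (10.0%), ALDH5A1 (3.16%), ALDH1L2 and ALDH16A1 (3.31%), whose reads cannot be told apart without strand. A protein-coding gene on the same strand shares 7.34% of the exon bases of ALDH16A1.

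Per length, in RPKM (CPM divided by exon length in kilobases), ALDH1A1 was the highest member in UC3 and stood above ALDH2 alone in UC3DDP. In UC3DDP the order was ALDH18A1 at 47.3 ± 4.68, ALDH7A1 at 36.0 ± 0.917, ALDH3A2 at 31.6 ± 3.33, ALDH1B1 at 21.4 ± 0.970, ALDH3B1 at 21.4 ± 2.16, ALDH1A1 at 3.75 ± 0.765 and ALDH2 at 0.0268 ± 0.0413 RPKM (SD, n = 3). There, the libraries of ALDH7A1 and ALDH3A2 overlapped, as did those of ALDH1B1 and ALDH3B1. In UC3 the order was ALDH1A1 at 97.7 ± 2.11, ALDH3A2 at 37.6 ± 0.859, ALDH7A1 at 36.9 ± 0.413, ALDH18A1 at 30.8 ± 0.846, ALDH1B1 at 24.0 ± 0.279 and ALDH3B1 at 13.3 ± 0.548 RPKM, with ALDH2 listed at 0. Only ALDH3A2 and ALDH7A1 overlapped as neighbours in that order. With the length of the longest transcript instead, an alternative chosen after seeing the data, ALDH3A2 was at 23.0 RPKM in UC3DDP and 27.4 RPKM in UC3, below ALDH7A1 and ALDH18A1 in both lines, and ALDH3B1 was at 10.2 RPKM in UC3DDP and 6.35 RPKM in UC3.

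The make-up of the summed ALDH level differed between the lines. ALDH1A1 contributed 1.28%, 2.04% and 1.78% of the summed RPKM of 14 ALDH genes in UC3DDP replicates 1 to 3, against 34.5%, 34.7% and 33.4% in UC3 replicates 1 to 3. The share of ALDH18A1 was 21.3% ± 1.46 in UC3DDP and 10.8% ± 0.256 in UC3, and that of ALDH9A1 was 16.8% ± 0.369 in UC3DDP and 9.69% ± 0.212 in UC3. These shares depend on one another, since they sum to the whole. The sum itself was 222 ± 7.37 RPKM in UC3DDP and 286 ± 1.35 RPKM in UC3, and without ALDH1A1 it was 218 ± 8.01 RPKM in UC3DDP and 188 ± 1.77 RPKM in UC3. The sum of all 14 genes was thus lower in UC3DDP, and that of the other 13 was higher. These sums and shares are without the GC and length offset, which lowered the fold changes of some of the 13 genes and raised others. The part of the GC trend in the higher sum of the 13 was not tested.

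**Figure D3:**
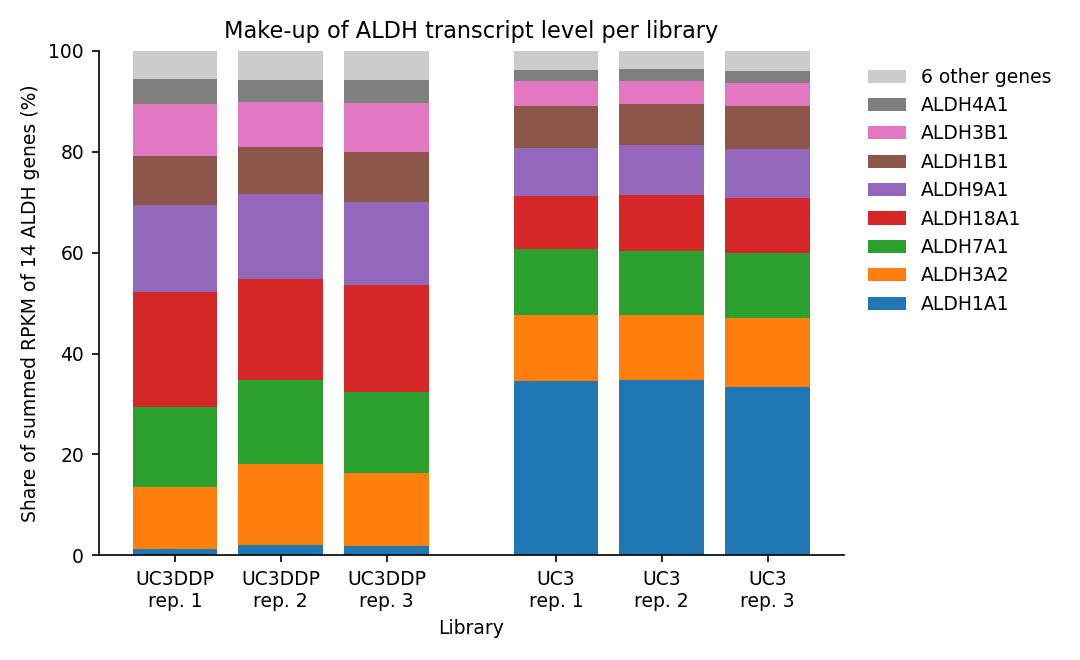
Share of each ALDH gene in the summed RPKM of 14 ALDH genes per library, with the 3 UC3DDP libraries on the left and the 3 UC3 libraries on the right, and the 6 genes with the smallest shares pooled in grey. ALDH1A1, at the base of each bar, averaged 1.70% in UC3DDP and 34.2% in UC3.

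The genes whose pattern over the 6 libraries was most like that of ALDH1A1 were SERPINB7, ZNF732 and SPANXB1, by the root mean square difference of mean-centred log2 CPM (prior count 2). SERPINB7, a serine protease inhibitor of the serpin family, differed by 0.14 and averaged 0.156 ± 0.0658 CPM in UC3DDP and 6.76 ± 0.672 CPM in UC3, a log2 fold change of -5.37, or -4.64 with the offset. ZNF732, a zinc finger gene, differed by 0.18 and had 0 counts in UC3DDP and 157 counts in UC3, at least 44.2-fold lower against the floor. SPANXB1, a cancer-testis gene of the SPANX cluster with close copies on chromosome X, differed by 0.20 and had 0 counts in UC3DDP and 159 counts in UC3, at least 44.7-fold lower. Reads of SPANXB1 may be divided with those copies, so its value is uncertain. The likeness of ZNF732 and SPANXB1 to ALDH1A1 rests on the prior count, since neither had a measured level in UC3DDP. That of SERPINB7 depends on it as well, since SERPINB7 had 2, 4 and 2 counts in UC3DDP replicates 1 to 3. Its fold change is therefore uncertain.

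Genes next to ALDH1A1 on chromosome 9 moved in both directions. The 10 nearest tested genes, 5 on each side, spanned 3177 kb. Of these, 3 were called higher and 4 lower, against 17.6% and 23.1% of all tested genes. The median log2 fold change of the 10 was 0.18, or 0.58 with the offset. LINC01474, the nearest tested gene at lower coordinates, 26.5 kb away, had 0 counts in UC3DDP and 146 counts in UC3, at least 41.1-fold lower. ANXA1, a calcium-dependent phospholipid-binding protein and the nearest at higher coordinates, 71.4 kb away, averaged 191 CPM in UC3DDP and 633 CPM in UC3, with a log2 fold change of -1.73, and -0.83 with the offset, short of the fold limit. RORB, a nuclear receptor, had -3.32 and -2.17 with the offset.

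Farther out at lower coordinates, GDA, which deaminates guanine, had 484 counts in UC3DDP and 3 counts in UC3, a ratio of scaled counts of 191 (exact 95% interval 65.0 to 930.0). The UC3 counts were 1, 0 and 2, and without UC3 replicate 3 the fitted log2 fold change was 8.20 in place of 7.40. At higher coordinates, NMRK1, a nicotinamide riboside kinase that feeds the synthesis of NAD, had a log2 fold change of 2.27, or 2.80 with the offset. ZFAND5 and C9orf85, also at lower coordinates, were at 0.17 and 0.20, or 0.77 and 0.71 with the offset. The nearest gene on each side of ALDH1A1 was thus called lower without the offset, and genes called higher lay farther out on both sides. RORB and CARNMT1, also called lower without the offset, lay farther out as well, at higher coordinates. They were 1417 and 1900 kb away, against 1980 kb for NMRK1. CARNMT1 was at -1.39, or -0.07 with the offset.

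The neighbours of ALDH7A1 and ALDH18A1 had lower medians than the ALDH gene between them. ALDH7A1, at -0.04, had 10 neighbours spanning 4210 kb, with a median log2 fold change of -1.31. Of these, 8 were called lower and 0 higher, against 23.1% and 17.6% of all tested genes, and 9 had a lower value than ALDH7A1. The median was -1.35 with the offset. Of the neighbours called lower, CEP120 and PHAX fell short of the fold limit with the offset, at -0.52 and -0.86, and the rest stayed beyond it. ALDH18A1, at 0.62, had 10 neighbours spanning 1872 kb, with a median of -1.02, and -0.60 with the offset. Of these neighbours, 1 was called higher and 5 lower. With the offset NOC3L, TBC1D12, CCNJ and ZNF518A fell short of the fold limit, at -0.95, -0.84, -0.73 and -0.83. HELLS, also called lower, was at -1.17 with the offset, and ENTPD1, called higher, was at 4.84. The medians were 0.13 around ALDH1B1, 0.30 around ALDH3A2, 0.41 around ALDH3B1 and 0.13 around ALDH2, with 2, 0, 2 and 2 neighbours called higher and 0, 0, 1 and 1 called lower. With the offset these medians were 0.43, 0.06, -0.10 and 0.07. DESeq2 and limma voom gave the same counts around ALDH1B1, ALDH3A2 and ALDH7A1, and at an unadjusted p under 0.05 edgeR had 3, 4 and 0 neighbours higher and 3, 1 and 9 lower. No test was made of these windows, which share one comparison with the members.

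**Figure D4:**
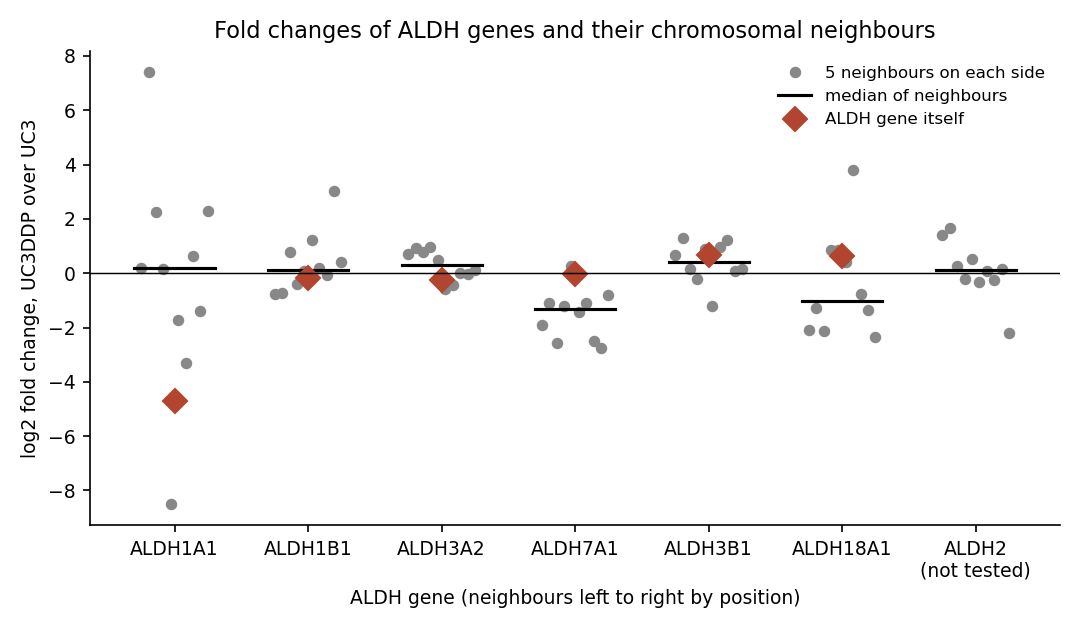
Log2 fold change of UC3DDP over UC3 for 7 ALDH members (red diamonds, ALDH2 not tested) and their 10 nearest tested neighbours (grey points, 5 on each side, left to right by position), with the neighbours' median as a black line. The medians are 0.18 around ALDH1A1, -1.31 around ALDH7A1 and -1.02 around ALDH18A1, and points near 8 or -8 are fitted values of genes with almost no counts in one line.

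Genes that supply or read the product of ALDH1A1 differed in opposite directions. Of 20 listed genes of retinoid transport, conversion and reception, 10 were tested. Of these, 2 were called higher and 1 lower, against 17.6% and 23.1% of all tested genes. With the offset 1 was called higher and 2 lower, against 13.2% and 14.6%. The median log2 fold change was 0.00, or -0.30 with the offset. CRABP2, which carries retinoic acid to its receptors, had 69.4, 59.4 and 61.4 CPM in UC3DDP replicates 1 to 3 and 4.41, 4.80 and 4.42 CPM in UC3 replicates 1 to 3. That is a log2 fold change of 3.80 (SE 0.10, adjusted p = 1.7e-08, edgeR) and 3.16 with the offset. RXRA, the partner receptor of the retinoic acid receptors, averaged 70.5 ± 6.55 CPM in UC3DDP and 33.2 ± 0.238 CPM in UC3, with 1.09 and 0.37 with the offset, which ends its call. DHRS3, a reductase that turns retinal back into retinol and so works against the ALDH1A step, averaged 7.44 ± 0.549 CPM in UC3DDP and 15.8 ± 0.432 CPM in UC3, with -1.09 and -1.75 with the offset.

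Among 11 listed genes that retinoic acid is known to induce, 4 were tested. Of these, 2 were called higher and 2 lower, against 17.6% and 23.1% of all genes, and the median log2 fold change was 0.43. NRIP1, a nuclear receptor corepressor, had 2.85, 4.13 and 4.44 CPM in UC3DDP replicates 1 to 3, against 67.2, 68.5 and 67.9 CPM in UC3 replicates 1 to 3. Its log2 fold change of -4.15 (SE 0.13, adjusted p = 3.9e-08, edgeR), or -2.94 with the offset, was, like that of ALDH1A1, below 0 in both fits. TGM2, tissue transglutaminase, averaged 583 ± 46.8 CPM in UC3DDP and 152 ± 5.24 CPM in UC3, with 1.94 and 1.35. CRABP2 and DHRS3 belong to this list as well. The retinoic acid induced genes tested here thus had no common direction, and their median was -0.20 with the offset.

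Of the genes of ethanol oxidation, 2 of 9 were tested, with 0 called by edgeR, DESeq2 or limma voom. By edgeR 40.7% of all genes were called. Both tested genes were higher at an unadjusted p under 0.05. ADH5, the formaldehyde dehydrogenase that works on the glutathione adduct, averaged 194 ± 3.13 CPM in UC3DDP and 156 ± 3.57 CPM in UC3, a log2 fold change of 0.32, and 0.92 with the offset.

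Of 15 listed enzymes that remove aldehydes by other reactions, 14 were tested, 6 called higher and 2 lower, against 17.6% and 23.1% of all genes, with a median log2 fold change of 0.80, against 0.02 over all genes. With the offset 3 were called higher and 0 lower, against 13.2% and 14.6% of all genes, and the median was 0.61. The 3 were aldo-keto reductases, which reduce aldehydes and ketones with NADPH. AKR1B10 had 130 counts in UC3DDP and 2 counts in UC3, a ratio of 77.0 (exact 95% interval 20.9 to 643). Both UC3 counts were in replicate 3, without which UC3 was at 0 and the fitted log2 fold change, which then depends on the prior count, was 8.53 in place of 6.01.

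AKR1C1 averaged 3.77 ± 0.655 CPM in UC3DDP and 0.235 ± 0.133 CPM in UC3, with a log2 fold change of 3.98, or 4.63 with the offset. AKR1C3 had 11.8, 10.6 and 10.2 CPM in UC3DDP libraries and 1.14, 1.86 and 1.49 CPM in UC3 libraries, with 2.86, or 3.15 with the offset. AKR1C genes are near-identical, and reads may be divided between them, so each value is uncertain on its own. HAGH, which completes the clearance of methylglyoxal, averaged 31.6 ± 1.31 CPM in UC3DDP and 11.1 ± 0.280 CPM in UC3, with 1.51, but 0.76 with the offset, short of the fold limit.

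Next to ALDH18A1 in metabolism, 9 of 10 listed genes of proline and glutamate metabolism were tested. Calls were 2 higher and 1 lower, against 17.6% and 23.1% of all genes. With the offset 2 were also called higher and 1 lower, against 13.2% and 14.6%. The median log2 fold change was 0.57, or -0.08 with the offset. GLUD1, chosen after its values were seen, was called higher only with the offset, at 0.13, and 1.21 with the offset. GLUL, which makes glutamine from glutamate, averaged 47.0 ± 3.21 CPM in UC3DDP and 22.5 ± 0.935 CPM in UC3, with a log2 fold change of 1.06, or 1.40 with the offset. PYCR1, which completes proline synthesis after ALDH18A1, averaged 81.3 ± 6.42 CPM in UC3DDP and 39.6 ± 0.958 CPM in UC3, with 1.04, and 0.20 with the offset. Its call also ended without UC3DDP replicate 1, at 0.98.

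Around ALDH3A2, 8 of 10 listed genes of fatty aldehyde and sphingosine phosphate metabolism were tested, with a median of -0.05. Calls were 1 higher and 1 lower, against 17.6% and 23.1% of all genes. With the offset 2 were called higher and 1 lower, against 13.2% and 14.6%, and the median was 0.27. PHYH, a peroxisomal enzyme of phytanic acid breakdown chosen after its values were seen, was the added call, at 0.96, and 1.03 with the offset. SPHK1, which makes sphingosine 1-phosphate, had 52.2, 42.0 and 44.9 CPM in UC3DDP replicates 1 to 3 and 6.05, 6.97 and 6.86 CPM in UC3 replicates 1 to 3, with 2.81, or 1.95 with the offset. FAR1, which reduces fatty acyl-CoA to fatty alcohol for ether lipids, averaged 34.5 ± 9.51 CPM in UC3DDP and 228 ± 3.95 CPM in UC3, with -2.72, or -1.02 with the offset, and -0.98 with the offset and without UC3DDP replicate 1, which ends its call. Both fold changes were larger in size than that of ALDH3A2, a contrast that was not tested.

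Around ALDH7A1, 4 of 9 listed genes of lysine and choline breakdown were tested, with a median of -0.21. Calls were 1 higher and 1 lower, against 17.6% and 23.1% of all genes. With the offset 1 was called higher and 0 lower, against 13.2% and 14.6%, and the median was 0.17. That call was AASS, the first enzyme of the lysine route, chosen after its values were seen, at -0.22, and 1.17 with the offset. AADAT, an aminotransferase of the same lysine route, averaged 9.57 ± 0.842 CPM in UC3DDP and 22.1 ± 0.742 CPM in UC3, with -1.20, and -0.62 with the offset. SARDH, the sarcosine dehydrogenase, averaged 1.59 ± 0.576 CPM in UC3DDP and 0.466 ± 0.159 CPM in UC3, with 1.76, and 0.95 with the offset. Neither AADAT nor SARDH passed the fold limit with the offset.

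**Figure D5:**
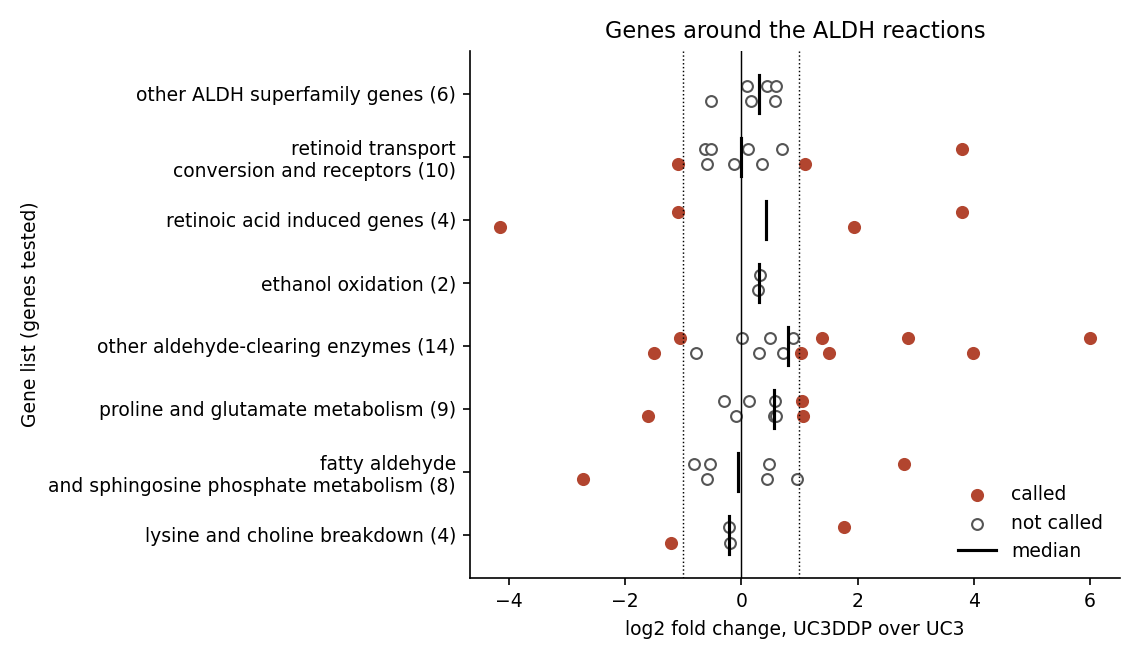
Log2 fold change of UC3DDP over UC3 for tested genes around the ALDH reactions, by list, with called genes filled, other genes open and the list's median as a black line. CRABP2, DHRS3 and ALDH4A1 appear in more than one list, the medians run from -0.21 to 0.80, and the point at 6.01 is the fitted value of AKR1B10, which had 2 counts in UC3.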

How the data were processed

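RNA was sequenced from 3 UC3DDP and 3 UC3 libraries, grouped by the line in the sample titles. The study's methods name TRIzol extraction and NEBNext libraries. The authors used Fastp for trimming, HISAT2 for alignment to GRCh38 and featureCounts for counting reads per gene. Whether counting used strand is not given in sources used here. The authors deposited unnormalized whole-number counts and summed exon lengths for 18936 genes, and 10 counts was the lowest gene total. The deposited log2 fold change, its linear fold ratio, p-value and false discovery rate come from the authors' DESeq2 comparison and were not used.

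CPM used TMM-scaled totals (factors 0.977 to 1.02), and RPKM divided CPM by the deposited exon length. The 15120 genes passing filterByExpr (minimum count 10) were tested in R 4.3.3 with edgeR 4.0.16 (quasi-likelihood test, no covariates), with Benjamini-Hochberg adjustment over all of them. Calls needed an adjusted p below 0.05 with a log2 fold change above 1 in size, thresholds that the study also used. The fit was tested on simulated data, in which a far smaller share of genes was changed than was called here. No result here rests on that test. Every adjusted p is from edgeR unless another tool is named. The offset was a loess trend (span 0.3), fitted per library on GC content of the longest annotated transcript and then on length. The trend was fitted to the deviation of log2 CPM from the average of the line means. It thus removes any difference between the lines that runs with GC content or length, whatever its source. Alternatives were DESeq2 1.42.0, limma 3.58.1 voom, other scalings, no filter, no fold limit, the replicate block and leaving out each library. Low counts are given as ratios with 95% exact intervals or against a floor of 3 counts, summed over a line. Such limits hold counting error alone, because PCR copies cannot be told from separate molecules.

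The genes named are the members, the tested genes of the superfamily, from each pathway list up to 4 called genes of the largest fold change with a mean of 1 CPM or more in one line (the gene that moved most where none was called), and the 3 genes most like ALDH1A1. A gene that this rule takes is not reported here. Neighbours were summarised by their median, and those named singly were chosen after their values were seen. Members and lists were chosen with earlier results of these data known. Promoter sequences are from RefSeq on GRCh38.p14.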

Additional observations from a re-analysis of the deposited data

How the results depend on the processing

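Across 15 alternatives ALDH1A1 was called lower in each, at a log2 fold change of -4.86 to -4.08. Without the fold limit, 6134 genes were higher and 6038 lower, and 2 members were higher and 2 lower. The number of genes called lower was 2207 with the GC and length offset, 2213 with the offset and the replicate block, and 2234 with the offset and without UC3DDP replicate 1. Leaving out each library in turn gave 2611 to 2885 genes higher and 3415 to 3891 lower, with 0 to 0 members higher and 1 to 1 lower. With the offset, with offset and block, and with the offset without UC3DDP replicate 1, these signs reversed: ALDH7A1 to 0.076, 0.074 and 0.013, ALDH1L2 to 0.31, 0.31 and 0.32, ALDH4A1 to -0.20, -0.20 and -0.21, ALDH5A1 to -0.072, -0.070 and -0.056, and ALDH16A1 to -0.20, -0.20 and -0.18. ALDH3B1 was -0.030 in the last of these. The cause was not tested. Of 444 values of 37 genes under the other 12 alternatives, 443 kept direction and side of the threshold, the exception being PYCR1 at 0.98 without UC3DDP replicate 1. With the longest transcript as length, an alternative chosen after seeing the data, the ALDH1A1 share was 1.83% in UC3DDP and 36.0% in UC3. The sample titles do not say whether the replicate numbers pair the libraries. Same-numbered libraries had correlations of -0.05, -0.01 and -0.01 between their deviations from the line means. With 3 libraries per line, these values cannot show whether there was a pairing. The replicate block gave 2660 genes higher and 3514 lower. It changed no call of a member.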

Other observations

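A gene annotated as antisense to LRRK1 and ALDH1A3 (ENSG00000259583, chr15:100892343-100919391) had a row. It had 48, 43 and 41 counts in UC3DDP replicates 1 to 3, against 50, 46 and 46 counts in UC3 replicates 1 to 3. In log2 terms the difference was 0.14 (SE 0.15, adjusted p = 0.457, edgeR), and -0.35 with the GC and length offset (adjusted p = 0.055). Counts of an antisense gene cannot be told from those of the genes it overlaps, because the use of strand in counting is unknown.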
